A study of Mus musculus with 4 samples.

Results

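The genes described here are 10 transcription factors with known roles in neurons of the hypothalamus, *Tbx3*, *Fezf1*, *Fezf2*, *Sim1*, *Sim2*, *Otp*, *Nr5a1*, *Pou3f2*, *Arnt2* and *Nkx2-4*, out of 55573 genes counted. They were picked by symbol with the WT and KO counts of these libraries already known, so their levels and differences between genotypes are given as a description, without p-values. The cells were tdTomato-positive cells enriched by fluorescence-activated cell sorting (FACS) at embryonic day (E) 16, counted with the day of insemination as E1. The sample labels name the basal telencephalon as the dissected region, and the study describes the cells as interneurons of the preoptic area (POA), the rostral neighbour of the hypothalamus. All embryos were *Hmx3-Cre/tdTomato* on a C57BL/6J background, so that Cre and the reporter are found in both groups and mark cells with a history of *Hmx3* expression. The *Dnmt1* wild-type (WT) group comprised 2 libraries from a pool of 12 embryos, and the *Dnmt1* knockout (KO) group comprised 2 libraries from a pool of 6 *Dnmt1 loxP2* embryos, with loxP sites around exons 4 and 5 of *Dnmt1*. Removal of these exons by Cre gives a null allele of the maintenance DNA methyltransferase. The labels call the 2 libraries of a genotype biological replicates and the study calls them technical duplicates of pooled samples, so that the errors and p-values given here measure the spread between libraries of 1 pool and not between embryos.

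In the developing hypothalamus, neurons of each nucleus are specified by combinations of such factors. SIM1 is a bHLH-PAS protein that binds DNA as a dimer with ARNT2, and together with the homeodomain protein OTP and the POU factor POU3F2 (BRN2) it is needed for the neuroendocrine neurons of the paraventricular and supraoptic nuclei. NR5A1 (SF-1) is the nuclear receptor that defines the ventromedial nucleus, where the zinc finger repressor FEZF1 is also expressed. The T-box repressor TBX3 acts in the ventral tuberal hypothalamus and in arcuate neurons, and NKX2-4 is the closest relative of the ventral forebrain factor NKX2-1. FEZF2 acts in the early forebrain and, later, in subcerebral projection neurons of the cortex.

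The libraries held between 8075102 and 9995968 counts, and 3 counts corresponded to between 0.294 and 0.372 CPM (reads scaled to the TMM-adjusted library size). *Dnmt1* had 3103 and 4557 reads in WT, against 2383 and 2552 in KO. The log2 fold change was -0.56, with an edgeR adjusted p of 0.0511. Its adjusted p was 1.96e-07 without WT replicate 1, 0.00283 without WT replicate 2, 0.386 without KO replicate 1 and 0.521 without KO replicate 2. Reads from the exons that remain are still counted, so this level is no measure of the deletion itself. Mitochondrial rRNA took 8.66% of the counts of WT replicate 1 and at most 2.32% in any other library. The sorted cells carried the defining gene *Hmx3* at 78.6 and 90.0 CPM in WT and 71.8 and 93.7 CPM in KO, and its close relative *Hmx2* at 130 and 145 CPM in WT and 109 and 106 CPM in KO.

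In the WT libraries 9 of the 10 factors had counts, and these 9 passed edgeR's expression filter. *Nr5a1*, *Nkx2-4*, *Tbx3*, *Fezf1* and *Sim1* were lower in KO, from more than 4-fold for *Sim1* and *Fezf1* to no read at all for *Nkx2-4*. *Arnt2*, *Pou3f2*, *Otp* and *Fezf2* differed by less than 0.4 on the log2 scale. *Sim2* had 0 counts in all 4 libraries. At an edgeR adjusted p under 0.05 the same fit calls 5 of the 9 factors, all lower in KO, where it calls 7.90% of the 16832 tested genes in either direction and 0.570% as lower in KO. Of the 1329 genes called, 1233 were higher and 96 lower in KO, and with length and GC content of the genes corrected for the split was 1769 higher and 1040 lower. A log2 fold change of -2 or below was found for 5 factors and for 0.321% of the tested genes, or 0.137% when the call is required as well. These counts are not evidence about the 10 factors as a group, since the factors were chosen from this contrast, and *Nr5a1* and *Nkx2-4* passed the filter through the WT libraries alone. The calls changed with a library left out. *Sim1* was not called without KO replicate 2, where its log2 fold change was -1.91. *Pou3f2* was called in addition without WT replicate 2 (log2 fold change -0.66), where calls of lower genes were far more frequent among all tested genes as well. In pooled sorted cells, fewer cells with a transcript and less of it per cell cannot be told apart.

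**Figure D1:**
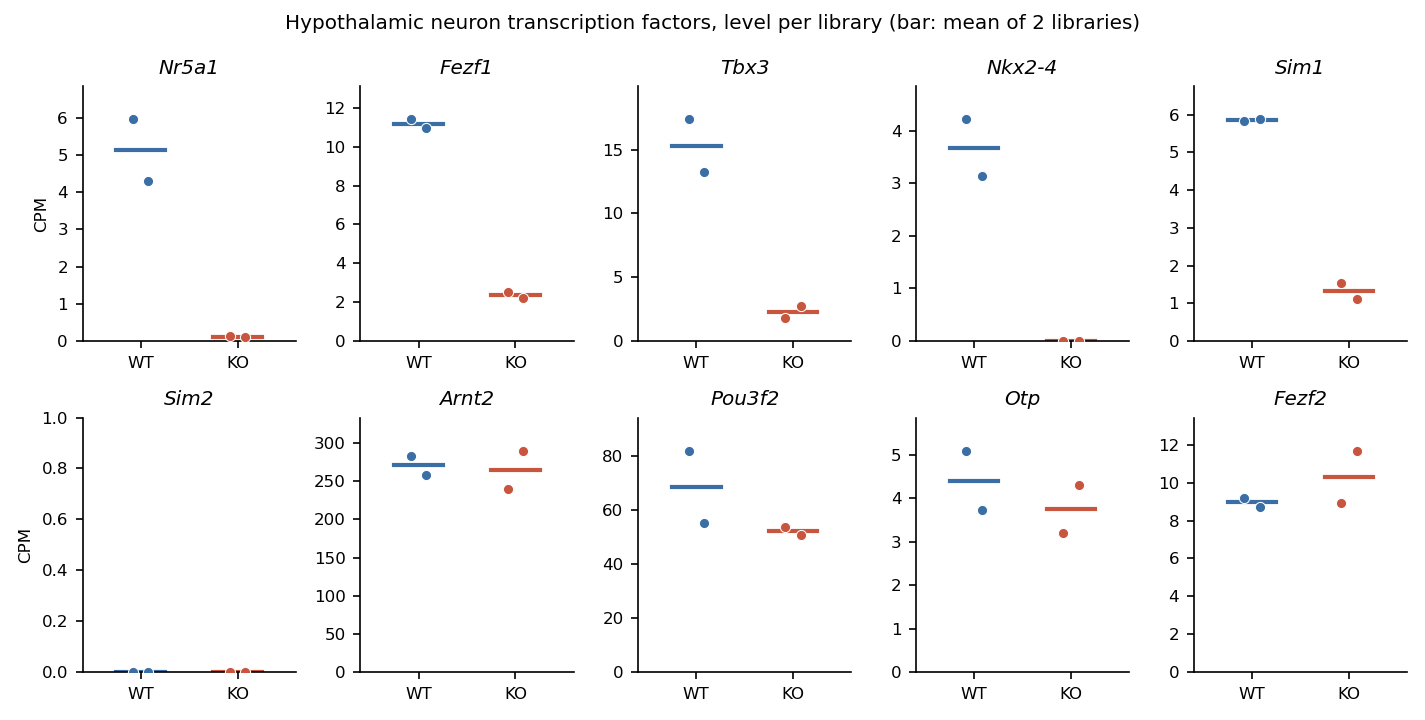
Level of each of the 10 factors in the 2 WT (blue) and 2 KO (red) libraries in CPM, with the mean of each genotype as a bar and a separate vertical axis from 0 for each gene. In the upper row the KO libraries of *Nr5a1*, *Fezf1*, *Tbx3*, *Nkx2-4* and *Sim1* lie far below both WT libraries, and in the lower row those of *Arnt2*, *Otp* and *Fezf2* overlap between genotypes, WT replicate 1 of *Pou3f2* stands above the other 3 libraries, and *Sim2* is at 0.

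*Nr5a1* (ENSMUSG00000026751, chromosome 2 of GRCm38 from 38692656 to 38714542, minus strand) encodes the nuclear receptor SF-1. It had 48 and 44 reads in WT and 1 count in each KO library, which is 5.13 ± 1.16 CPM (SD, n = 2) in WT, against 0.115 ± 0.00619 CPM (SD, n = 2) in KO. Both KO libraries were below the level of 3 counts, while both WT libraries were well above it. The ratio of WT to KO over the summed counts was 44.1, with an exact 95% counting interval from 11.9 to 369. Such intervals cover counting error only. The fitted log2 fold change was -5.32 ± 0.68 (SE).

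*Fezf1* (ENSMUSG00000029697, chromosome 6 from 23245044 to 23248362, minus strand), the zinc finger gene of the ventromedial lineage, had 92 and 112 reads in WT, against 21 and 20 in KO. The levels were 11.2 ± 0.316 CPM (SD, n = 2) and 2.35 ± 0.208 CPM (SD, n = 2). The libraries of each genotype were close to each other, and the genotypes differed 4.77-fold. The log2 fold change of *Fezf1* was -2.25 ± 0.32 (SE).

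*Tbx3* (ENSMUSG00000018604, chromosome 5 from 119670669 to 119684724, plus strand) had 140 and 135 reads in WT, against 15 and 25 in KO. In CPM it stood at 15.3 ± 2.94 (SD, n = 2) in WT, against 2.27 ± 0.686 CPM (SD, n = 2) in KO, so that both KO libraries were far below both WT libraries. The log2 fold change was -2.74 ± 0.35 (SE), or 6.75-fold. The antisense gene *Tbx3os1* overlaps 1.74% of the exonic bases of *Tbx3*. It had 16 and 24 reads in WT and 8 in each KO library, and since the strand setting of the counting is not given, reads in the overlap cannot be assigned to either gene.

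*Nkx2-4* (ENSMUSG00000054160, chromosome 2 from 147083316 to 147085445, minus strand) had 34 and 32 reads in WT and 0 counts in both KO libraries. Its WT level was 3.68 ± 0.767 CPM (SD, n = 2). Taking 3 counts for each KO library, it was at least 10.7-fold lower in KO. The fitted log2 fold change of -8.04 depends on the prior count of the fit and is no measure of size. All reads of *Nkx2-4* thus came from the WT libraries.

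*Sim1* (ENSMUSG00000019913, chromosome 10 from 50894754 to 50989152, plus strand), the factor of paraventricular neurons, had 47 and 60 reads in WT, against 13 and 10 in KO. This is 5.86 ± 0.0315 CPM (SD, n = 2) in WT, against 1.32 ± 0.314 CPM (SD, n = 2) in KO, with a log2 difference of -2.14 ± 0.43 (SE). All KO values were below 2 CPM and all WT values above 5 CPM. Its paralogue *Sim2* (ENSMUSG00000062713, chromosome 16 from 94084931 to 94127032, plus strand) had 0 counts in each library, which allows a level of up to 0.294 to 0.372 CPM.

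The genes of proteins that act together with SIM1 in paraventricular neurons follow. *Arnt2* (ENSMUSG00000015709, chromosome 7 from 84246278 to 84410176, minus strand) had the most reads of the 10 factors, with 2278 and 2639 reads in WT, against 2013 and 2630 in KO. This gave 271 ± 17.1 CPM (SD, n = 2) in WT, against 264 ± 35.6 CPM (SD, n = 2) in KO, and the KO libraries lay on either side of the WT libraries. Its log2 fold change was -0.03 ± 0.15 (SE), and it was above 0 in 5 of 13 alternative fits, from -0.17 to 0.11. The antisense gene *Gm30873*, which overlaps 2.78% of its exonic bases, had at most 37 reads in any library.

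*Otp* (ENSMUSG00000021685, chromosome 13 from 94875602 to 94885130, plus strand) had 41 and 38 reads in WT, against 27 and 39 in KO, or 4.41 ± 0.966 CPM (SD, n = 2) and 3.75 ± 0.767 CPM (SD, n = 2). The genotypes overlapped, and the log2 fold change was -0.22 ± 0.40 (SE). It ranged from -0.45 without WT replicate 2 to 0.01 without WT replicate 1. From WT to KO the summed reads thus went from 79 to 66 for *Otp* and from 107 to 23 for *Sim1*.

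*Pou3f2* (ENSMUSG00000095139, chromosome 4 from 22482780 to 22488366, minus strand) had 660 and 563 reads in WT, against 453 and 461 in KO. In CPM the WT libraries were at 81.9 and 55.2 and the KO libraries at 53.9 and 50.8, so that the groups did not overlap, but WT replicate 2 was within 1.31 CPM of the nearer KO library. The log2 fold change was -0.39 ± 0.20 (SE), and it was -0.08 without WT replicate 1 and -0.66 without WT replicate 2. The size of the difference in *Pou3f2* therefore rests on WT replicate 1. In 6 of the 9 factors both KO values were lower than both WT values, *Pou3f2* included, as in 25.2% of the tested genes.

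*Fezf2* (ENSMUSG00000021743, chromosome 14 from 12342094 to 12348189, minus strand) had 74 and 89 reads in WT, against 75 and 106 in KO. With 8.95 ± 0.329 CPM (SD, n = 2) in WT, against 10.3 ± 1.95 CPM (SD, n = 2) in KO it was the only factor with a fitted log2 fold change above 0 (0.20 ± 0.28, SE). The genotypes overlapped for this gene, and its log2 fold change was 0.40 without KO replicate 1 and near 0 without KO replicate 2. From WT to KO the summed reads thus went from 163 to 181 for *Fezf2* and from 204 to 41 for its paralogue *Fezf1*.

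**Figure D2:**
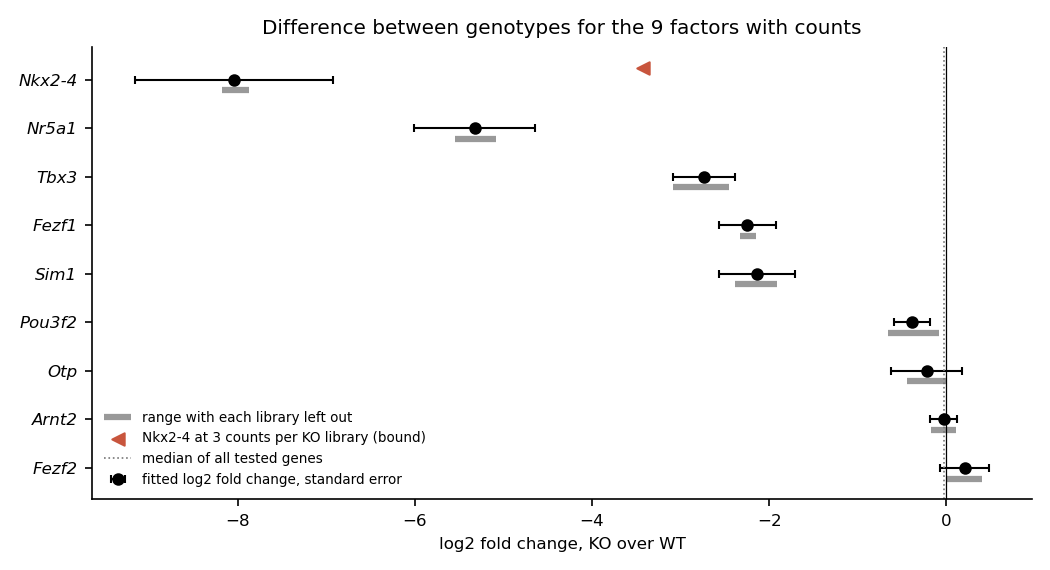
Log2 fold change of KO over WT on the horizontal axis for the 9 factors with counts (black, with the standard error), the range with 1 library removed at a time (grey) and the median of all tested genes (dotted line). The 5 lower factors lie at -2.14 or below with every grey bar left of -1.9, the other 4 lie between -0.39 and 0.20, and the red triangle gives the bound for *Nkx2-4* from 3 counts per KO library.

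Levels per length can be compared between genes, as CPM per kilobase of annotated exon. In WT the order was *Arnt2* (35.2), *Pou3f2* (12.3), *Fezf1* (4.65), *Fezf2* (2.94), *Tbx3* (2.31), *Nkx2-4* (2.13), *Otp* (1.53), *Nr5a1* (1.21) and *Sim1* (0.679 CPM per kilobase). The libraries of *Tbx3* and *Nkx2-4* overlapped on this scale, as did those of *Otp* and *Nr5a1*, and all other neighbours in this order were apart. In KO the order was *Arnt2* (34.4), *Pou3f2* (9.36), *Fezf2* (3.38), *Otp* (1.30), *Fezf1* (0.975), *Tbx3* (0.342), *Sim1* (0.154) and *Nr5a1* (0.0270 CPM per kilobase). *Fezf1* thus stood above *Fezf2* and *Otp* in WT and below both in KO. In WT, all 5 lower factors were at 4.65 CPM per kilobase or less, but so were *Fezf2* and *Otp*.

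Promoter sequences from RefSeq (GRCm38.p6), from 250 bases before to 50 bases after the start that RefSeq gives each gene, were found for 7 of the 10 factors, and *Tbx3*, *Nr5a1* and *Sim2* had no entry. RefSeq starts need not match the GENCODE bounds given above, and the windows of *Sim1* (50895401 to 50895700) and *Fezf2* (12345816 to 12346115) lie wholly inside those bounds. As DNMT1 maintains methylation at CpG sites, these were counted in each window. All 7 windows held more CpG sites than the median window of 27025 genes, which had 7. *Fezf1* and *Sim1* had 13 each, *Fezf2* and *Otp* 20 each, *Pou3f2* 24, *Nkx2-4* 38 and *Arnt2* 40. The 3 lower factors with a window thus included the lowest of the 7 values as well as the second highest. DNA methylation itself was not analysed here. The parts of the windows before the first GENCODE exon are shown for *Fezf1* and *Nkx2-4*, which were lower in KO, and for *Otp*, whose genotypes overlapped, with CpG sites in capitals. They lie at chr6:23248363-23248514 (minus strand, 152 bases, 7 CpG sites), chr2:147085446-147085595 (minus strand, 150 bases, 12 CpG sites) and chr13:94875386-94875601 (plus strand, 216 bases, 18 CpG sites).
Fezf1: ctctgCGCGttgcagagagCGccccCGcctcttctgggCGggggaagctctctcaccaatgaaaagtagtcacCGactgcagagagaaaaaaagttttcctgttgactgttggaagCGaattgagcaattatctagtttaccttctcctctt
Nkx2-4: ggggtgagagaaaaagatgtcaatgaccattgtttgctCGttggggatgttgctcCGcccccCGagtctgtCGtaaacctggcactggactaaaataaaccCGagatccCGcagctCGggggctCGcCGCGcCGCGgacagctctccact
Otp: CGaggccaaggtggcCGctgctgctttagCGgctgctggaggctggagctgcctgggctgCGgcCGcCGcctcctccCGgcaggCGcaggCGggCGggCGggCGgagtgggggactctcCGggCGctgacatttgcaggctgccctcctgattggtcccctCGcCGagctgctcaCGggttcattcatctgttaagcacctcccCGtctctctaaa

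The same windows were searched on both strands for recognition cores of the factors themselves. The core ACGTG, read by dimers of SIM and ARNT proteins, was found in 1 of the 7 windows, that of *Pou3f2*, and in 19.7% of all windows. The NR5A half-site CAAGGTCA, the T-box half-site AGGTGTGA and the octamer ATGCAAAT of POU factors were found in 0 of the 7 windows, against 1.53%, 1.27% and 1.75% of all windows. No motif is contained in another.

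The question whether other genes of the same families and of the same hypothalamic programmes differed between genotypes was addressed with 9 lists holding 89 genes, of which 63 were tested. With edgeR at an adjusted p under 0.05, 8 of these genes fell and 7 rose in KO, which is 12.7% and 11.1% of those tested, against 0.570% and 7.33% of all tested genes. Their median log2 fold change was -0.44, against -0.03 over all tested genes. The genes that fell belonged to the ventromedial, arcuate, wider hypothalamic and cortical lists, apart from *Npas4*, an activity-induced relative of *Sim1* named after its values were seen, and those that rose were all relatives from the bHLH-PAS and T-box families. These lists were compiled with results of these libraries known, so these shares are not evidence about the lists as groups. *Vgll2* and *Bsx* passed the filter through the WT libraries alone, and *Tbx15* through the KO libraries alone. The split between genes that rose and fell was not kept in all alternatives. It was 8 higher and 19 lower when length and GC content of the genes were corrected for, where 1769 genes were called higher and 1040 lower among all tested genes. It was 7 higher and 17 lower without a filter on low counts, where 1790 genes were called higher and 573 lower among all tested genes. With at least 10 counts in every library 50 of the listed genes were tested. Of these 6 were called higher and 5 lower, where 831 genes were called higher and 52 lower among all tested genes. The split also changed with a library left out.

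Of 10 genes of ventromedial neurons, 9 were tested, 2 fell and 0 rose, with a median log2 fold change of -0.53. *Vgll2*, a cofactor of TEAD proteins, had 15 and 16 reads in WT and 0 in both KO libraries, at least 4.99-fold lower with 3 counts taken for each KO library (edgeR adjusted p = 0.0174). Without KO replicate 1 or 2 the adjusted p of *Vgll2* was 0.0990 and 0.124. The 7 genes that were not called had log2 fold changes from -0.81 to 0.61.

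Of 10 arcuate genes 8 were tested and 2 fell, with a median log2 fold change of -0.94. *Bsx*, the homeobox gene of arcuate feeding neurons, had 30 and 31 reads in WT, against 2 and 0 in KO (edgeR adjusted p = 0.0147). The ratio of WT to KO over the summed counts was 29.2 (exact 95% counting interval 7.75 to 247). The log2 fold change of *Bsx* was -4.72, and -3.74 without KO replicate 2. Without KO replicate 1 it was -7.94, where 0 KO reads were left and the value depends on the prior count of the fit. *Isl1*, a LIM-homeobox gene, had 81.1 and 66.1 CPM in WT and 39.6 and 40.1 CPM in KO, with a log2 difference of -0.88 ± 0.16 (SE, adjusted p = 0.0126 by edgeR). Without KO replicate 1 or 2 the adjusted p of *Isl1* was 0.0959 and 0.0763. The other 6 tested genes did not pass the threshold (smallest adjusted p = 0.0613).

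Of 8 paraventricular genes, those of the peptide hormones *Avp*, *Oxt*, *Crh* and *Trh* did not pass the filter. The first 3 of them had at most 8 reads in any library. The 4 tested genes had log2 fold changes from -1.02 to -0.42, of which 0 passed the threshold with edgeR, 1 had an unadjusted p under 0.05 and 1 passed with DESeq2. This gene was *Nhlh2*, a bHLH factor, with 390 and 312 reads in WT, against 181 and 170 in KO (log2 fold change -0.97, edgeR adjusted p = 0.0519 and between 1.25e-09 and 0.168 over its alternatives, the latter without KO replicate 2). *Sst*, the somatostatin gene, had 35.6 and 51.3 CPM in WT and 33.4 and 30.9 CPM in KO (log2 fold change -0.44, edgeR adjusted p = 0.252, 0.0380 when length and GC content were corrected for, 0.0269 with the replicate block as well and 0.000984 without WT replicate 1).

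Among 11 genes that mark the wider hypothalamic field, 6 were tested and 1 fell. This was *Six6*, with 30 and 80 reads in WT, against 3 and 11 in KO (log2 fold change -2.85 ± 0.65, SE, adjusted p = 0.0341 by edgeR). Its libraries differed within each genotype, and the log2 fold change was -2.22 without WT replicate 2, -2.24 without KO replicate 1 and -3.98 without KO replicate 2. The mammillary gene *Foxb1* had 0 counts in every library. *Hmx3* and *Hmx2* did not pass the threshold (log2 fold changes -0.03 and -0.36, edgeR adjusted p = 0.949 and 0.189), and that of *Hmx2* was 0.0141 when length and GC content were corrected for, 0.00388 with the replicate block as well and 0.0179 without WT replicate 1. With library size or the upper quartile as normalization, the log2 fold change of *Hmx3* was 0.077 and 0.012.

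Relatives of NKX2-4 and NR5A1 were covered by 8 genes, of which 3 were tested and 0 passed the threshold with edgeR, had an unadjusted p under 0.05 or passed with DESeq2. *Nkx2-1*, the ventral forebrain factor, had 479 and 394 reads in WT, against 293 and 372 in KO, and *Nkx2-2*, a factor of the ventral neural tube, had 44 and 67 in WT and 70 and 92 in KO. Their log2 fold changes were -0.37 and 0.61 (edgeR adjusted p = 0.374 and 0.270), and without WT replicate 2 that of *Nkx2-1* was -0.66 (adjusted p = 0.000879). *Nr5a2*, singled out after its values were seen, had 10 and 21 reads in WT, against 1 and 0 in KO and was not tested. Of the 7 tested POU genes 0 passed the threshold with edgeR, 0 had an unadjusted p under 0.05 and 0 passed with DESeq2. *Pou3f3*, the paralogue of *Pou3f2*, was at 213 and 195 CPM in WT and 219 and 226 CPM in KO. *Pou6f1* was at 123 and 136 CPM in WT and 128 and 136 CPM in KO, and the sign of its small log2 fold change (0.03) turned when length and GC content were corrected for (-0.12).

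Of 12 relatives of SIM1 and ARNT2 in the bHLH-PAS family, 5 rose and 1 fell. The hypoxia-type factors *Epas1* and *Hif3a* had the largest increases, from 33 and 17 to 546 and 623 counts and from 15 and 18 to 513 and 584 counts. Their log2 fold changes were 4.58 and 5.10 (edgeR adjusted p = 7.54e-05 and 6.33e-06). Without WT replicate 1 that of *Epas1* was 5.31. *Npas3*, which encodes a neural bHLH-PAS factor, rose by 0.80 (edgeR adjusted p = 0.0177, and 0.157 without KO replicate 2) and the clock gene *Arntl* by 0.66 (edgeR adjusted p = 0.0480, and 0.324 and 0.318 without KO replicates 1 and 2). *Arnt*, the general dimerization partner, was at 57.6 and 42.5 CPM in WT and 57.7 and 66.2 CPM in KO. Of the 8 tested T-box genes 2 rose and 0 fell with edgeR, while 5 had an unadjusted p under 0.05 and 3 passed with DESeq2. The 6 that were not called had log2 fold changes from -2.53 to 1.14. Both KO values were below both WT values in 3 of the 8 and above them in 3, against 25.2% and 28.3% of all tested genes. *Tbx2*, the paralogue of *Tbx3*, had 11 and 21 reads in WT, against 75 and 71 in KO, with a log2 difference of 2.26 ± 0.39 (SE, adjusted p = 0.00899 by edgeR), and *Tbx15* had 2 and 0 reads in WT, against 26 and 28 in KO (edgeR adjusted p = 0.0180). The paralogues *Tbx2* and *Tbx3* thus lay on opposite sides of 0.

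**Figure D3:**
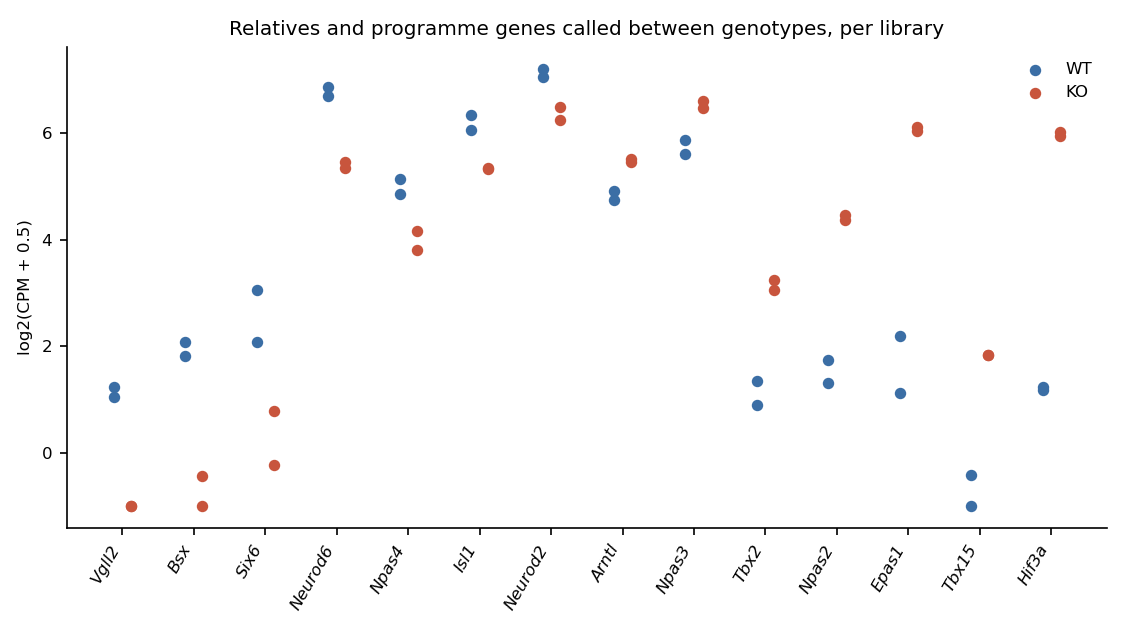
Level of 14 of the 15 called relatives and programme genes in each WT (blue) and KO (red) library as log2(CPM + 0.5), ordered by log2 fold change. In each gene the KO points lie on 1 side of the WT points, with *Vgll2*, *Bsx* and *Six6* at the lower end and *Epas1*, *Tbx15* and *Hif3a* at the upper end.

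Genes of the cortical programme in which FEZF2 acts were described as well, beside *Fezf2* itself, whose genotypes overlapped. All 9 were tested, each had both KO values under both WT values (as do 25.2% of tested genes), and 2 passed the threshold. *Neurod6*, a bHLH gene of glutamatergic cortical neurons, was at 116 and 104 CPM in WT and 43.8 and 40.3 CPM in KO (log2 fold change -1.38 ± 0.15, SE, adjusted p = 0.000882 by edgeR). *Neurod2* fell by 0.76 on the log2 scale (edgeR adjusted p = 0.0229, and 0.321 and 0.0717 without KO replicates 1 and 2). Of 6 genes of glutamatergic neurons 5 were tested and 0 passed with edgeR (0 with DESeq2, and 3 had an unadjusted p under 0.05), among them the vesicular transporter *Slc17a6* of most hypothalamic glutamatergic neurons, with 507 and 495 reads in WT, against 303 and 346 in KO (log2 fold change -0.59, edgeR adjusted p = 0.0951).

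Markers of other cell types differed between the same libraries and are given beside these results. All 10 astrocyte markers, of which the glutamate transporters *Slc1a2* and *Slc1a3* had the highest CPM, were called higher in KO, with summed levels of 262 and 277 CPM in WT and 3668 and 3865 CPM in KO and a median log2 fold change of 4.16, and *Gfap* was at 0 in WT. Of the oligodendrocyte markers 6 of 8 and of the mural cell markers 6 of 7 were called higher (medians 2.03 and 2.08), *Acta2* being at 0 in WT. Their summed levels were 150 to 166 CPM in WT and 579 to 603 CPM in KO for oligodendrocytes, and 310 to 327 CPM in WT and 680 to 734 CPM in KO for mural cells. Without *Cspg4*, which is also in the oligodendrocyte precursor list and was the 1 mural gene not called, the mural sum was 57.7 and 63.5 CPM in WT and 360 and 356 CPM in KO. The summed level of 9 GABAergic markers was 1583 to 1732 CPM in WT and 1631 to 1759 CPM in KO (1 called higher), and that of 9 markers of neurons in general was 5561 to 6113 CPM in WT and 4140 to 4188 CPM in KO, with 2 called lower and a median log2 fold change of -0.57. The part of these differences in the levels of the 5 lower factors, of the programme genes that fell and of the relatives that rose was not tested. Of the remaining lists, 1 of 5 oligodendrocyte precursor genes and 1 of 6 microglial genes were called higher, and 1 of 5 red blood cell genes and 1 of 4 choroid plexus genes were called lower. DESeq2 called 2 precursor and 2 microglial genes, and 4 and 5 had an unadjusted p under 0.05 with edgeR. The precursor list summed to 1283 and 1339 CPM in WT and 1631 and 1707 CPM in KO. The microglial list summed to 26.9 and 30.4 CPM in WT and 51.5 and 58.8 CPM in KO. The choroid plexus gene was *Ttr*, with 329 and 564 reads in WT, against 8 and 10 in KO (log2 fold change -5.53, edgeR adjusted p = 1.77e-05). The summed level of the choroid plexus list was 46.8 and 61.8 CPM in WT and 6.06 and 8.70 CPM in KO. The fall of this sum rests on *Ttr*, which was at 40.8 and 55.3 CPM in WT and 0.951 and 1.10 CPM in KO. Of the 4 tested genes of this list, 2 had a log2 fold change below 0, *Ttr* included, and 2 above 0. The red blood cell list summed to 30.8 and 44.7 CPM in WT and 18.9 and 19.2 CPM in KO. The part of these lists in the levels of the 5 lower factors was not tested either. Both edgeR and DESeq2 called 0 of 6 endothelial genes and 0 of 8 genes of radial glia and dividing cells, of which 3 and 2 had an unadjusted p under 0.05. Of 7 tanycyte and pituitary genes 5 had 0 counts in all libraries, and *Dio2*, which astrocytes also express, was the only one tested, with 8 and 3 reads in WT, against 991 and 980 in KO.

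**Figure D4:**
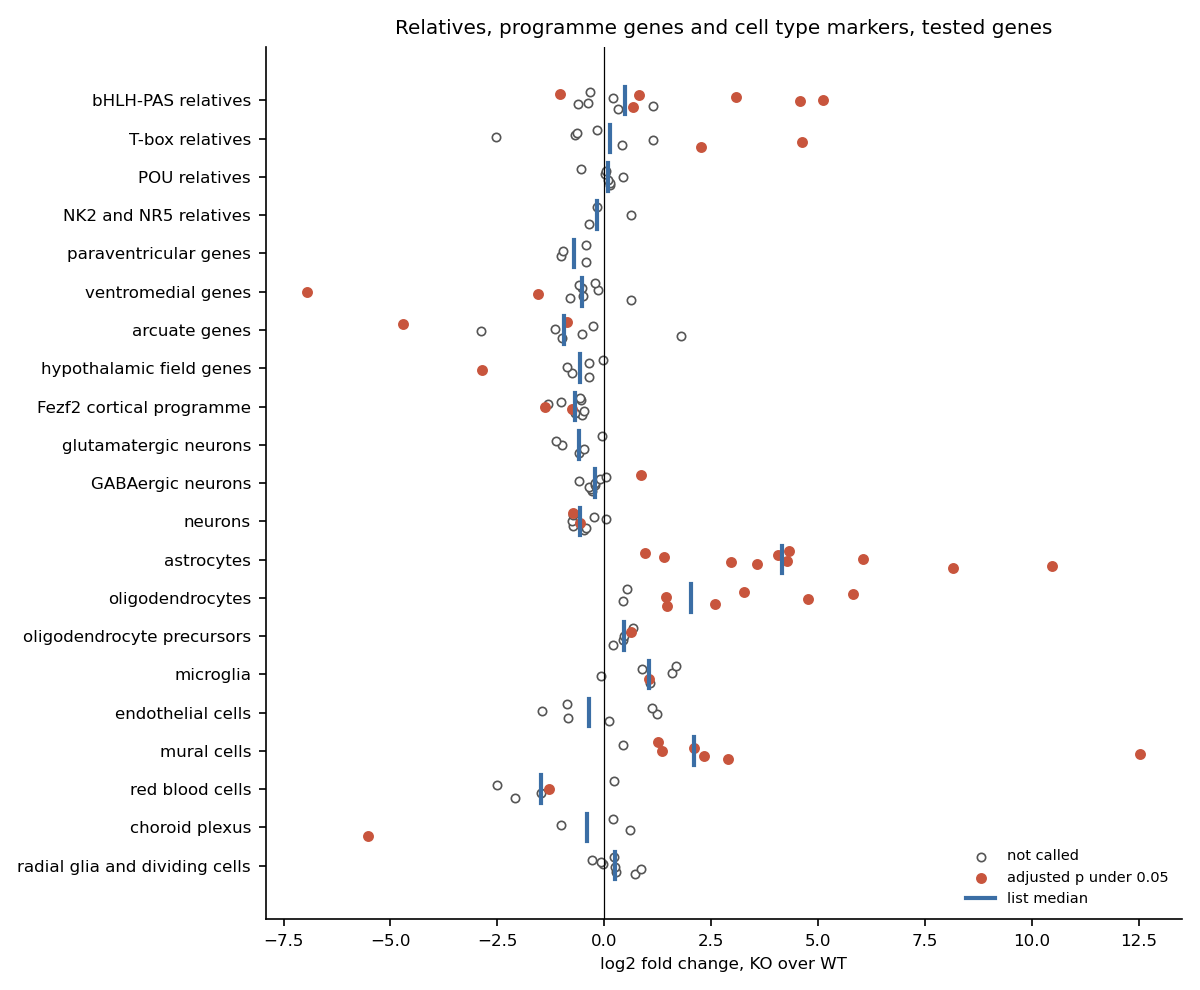
Log2 fold change of KO over WT (horizontal axis) for each tested gene of the lists of relatives, programme genes and cell type markers, with genes called at an edgeR adjusted p under 0.05 filled and the list median as a blue bar. The medians of the 5 programme lists lie between -0.94 and -0.53, that of the astrocyte list at 4.16. Fitted values of genes with no count in 1 genotype, such as *Vgll2*, *Gfap* and *Acta2*, depend on the prior count of the fit.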

How the data were processed

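Unnormalized counts of reads per gene were deposited by the authors, with 1 list for each library. The submitters' processing notes name CASAVA 1.8.2, STAR 2.5.2a and featureCounts 1.5.0-p1 with GRCm38, and the annotation release and the strand setting are not given in the sources used here. Counting without regard to strand would add reads of antisense genes.

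Of 55573 identifiers, 55480 were matched to GENCODE M21 (GRCm38), which supplied symbols, positions and exon lengths. After edgeR's expression filter 16832 genes were compared with TMM factors and edgeR's quasi-likelihood test (edgeR 4.0.16, R 4.3.3), with genotype as the only term and Benjamini-Hochberg adjustment over all tested genes. Genes with an adjusted p under 0.05 were called. Standard errors (SE) were taken from the log2 fold change and its test statistic, and CPM from TMM-scaled library sizes. The members and lists were chosen with earlier results of these data known. Named were all 10 members, *Dnmt1*, from each list of relatives and programme genes the called genes (at most the 4 most abundant, and where fewer than 2 were called the 2 most abundant in addition), and further genes chosen after their values were seen. Cell type markers were described by list. Some genes of the lists are counted but not reported singly here.

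Depth was 8075102 to 9995968 counts per library. Libraries of 1 genotype varied beyond Poisson error (chi-square over degrees of freedom, 65.4 in WT and 4.57 in KO), so each counted as 1 sample. Tested on simulated data of this comparison (16354 genes, 200 of them with a true log2 fold change of 2 in size), edgeR recovered 97% and DESeq2 1.42.0 87%. The simulation used the same variation for every gene and library and changed only genes with a mean of at least 10 counts. These shares check the procedure and are no estimate of what is recovered in the real libraries. The alternatives were other normalizations, filters and tools, a block for replicate number, a fit corrected for the length and GC content of genes, and each library left out. With 1 library left in a genotype, that library was assumed to vary like those of the other.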

Additional observations from a re-analysis of the deposited data

How the results depend on the processing

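The total of 1329 called genes (1233 higher and 96 lower) was 2363 without a filter on low counts, 883 with at least 10 counts in every library, 2244 with the replicate block, 2809 with length and GC content of the genes corrected for and 3243 with both, and 951 to 4209 when each library was left out. Without WT replicate 1 it was 3878, and without WT replicate 2 it was 4209. The higher genes made up 92.8% of the calls, but 83.5% with DESeq2, 75.8% without a filter, 72.4% with the block, 63.0% after the correction, 59.2% with both and 48.2% without WT replicate 2. The fit called 5 of the 10 factors in each alternative that kept all libraries, apart from the filter of at least 10 counts, where *Nr5a1* and *Nkx2-4* were not tested and 3 were called. With a library left out, the calls of *Sim1* and *Pou3f2* changed as given above. The genotypes were apart in 6 factors, all lower in KO, where 25.2% of all tested genes were apart with KO lower and 28.3% with KO higher. With library size or the upper quartile it was 7 factors, 1 of them higher in KO. Counts with a library left out are not compared, as genotypes are apart more easily with fewer libraries. The 15 called relatives and programme genes became 24 without a filter, 27 after the correction, 28 with the correction and the block, and 10 to 33 with a library left out. Among these genes 8 were lower in the fit reported and 14 with the block. The log2 fold change of *Dnmt1* passed the threshold with DESeq2 (-0.57), with DESeq2's size factors (-0.57), without a filter (-0.55), with the block (-0.56), after the correction (-0.69) and with both (-0.69), and ranged from -0.67 to -0.46 with a library left out.

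Library size as the only scaling moved the median log2 fold change of all tested genes by 0.11. The log2 fold changes of *Sim1*, *Fezf1*, *Tbx3*, *Nr5a1* and *Nkx2-4* stayed below 0 in every alternative in which they were fitted. That of *Pou6f1* (0.03) turned to -0.12 after the correction and to -0.12 with the block as well, and lay between -0.052 and 0.099 with a library left out. That of *Hmx3* turned to 0.077 with library size, 0.012 with the upper quartile and 0.0091 with at least 10 counts in every library, and lay between -0.23 and 0.16 with a library left out. Same-numbered libraries deviated together with a correlation of 0.137 across genes, and as the labels give them only a number, the block shows no pairing by design. At these depths, differences among genes with under 10 counts, such as *Avp* and *Oxt*, were not detectable.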
